A study of Fagopyrum tataricum with 9 samples.

Results

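Gibberellin synthesis and response genes were followed through seed filling in Tartary buckwheat (Fagopyrum tataricum). Members were the gene models whose best Swiss-Prot match has a protein name holding gibberellin, ent-kaurene, ent-kaurenoic, ent-copalyl, DELLA protein, snakin or GID1. The rule found 58 members among the 33931 genes of the count table, of which 30109 had at least 1 count, 31839 were described gene models and 23451 of these had a match. By role, 10 were genes of the early steps of synthesis, 8 gibberellin 20-oxidase genes, 3 gibberellin 3-oxidase genes, 9 gibberellin 2-oxidase genes, 4 GID1 receptor genes, 3 DELLA genes and 18 snakin or GASA genes. The last 3 matched CIGR1, a chitin-inducible gibberellin-responsive protein of rice. Of the 58 matches 30 were to Arabidopsis thaliana proteins, 10 to pea and 8 to potato, so a name is that of the closest known protein and not of a studied buckwheat gene.

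Gibberellins are plant hormones that drive cell elongation, fruit growth and germination. Terpene cyclases and cytochrome P450 enzymes make an inactive precursor, 20-oxidases and 3-oxidases convert it to the active hormone, and 2-oxidases inactivate it. The hormone binds the receptor GID1, which then holds DELLA proteins, repressors of growth, for destruction through an F-box protein. In seeds the hormone is known to act against abscisic acid, which promotes maturation and dormancy. Snakin and GASA proteins are small cysteine-rich peptides, many of them first found through their response to gibberellin, and potato snakins are antimicrobial.

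RNA was sequenced from whole seeds of the variety MIQIAO 1, grown in a field, with no treatment and no other genotype. The 3 stages sampled, with 3 libraries each, were green fruit, discoloration and initial maturity, at 13, 19 and 25 days post anthesis if the days follow the developmental order, which the labels do not state. The labels say that 3 plants gave the 3 replicates but do not say that a replicate number marks a plant. The spread behind each p-value is therefore that among libraries and may be technical in part. The labels also describe repeated sampling of an individual across stages, so libraries of different stages may not be independent. The main fit has no term for this, since which libraries share a plant is not stated. A level is given as CPM, the gene's count relative to its library's total after scaling between libraries (TMM, which assumes that most genes do not change), and as FPKM, which also divides by gene length, where genes are set side by side.

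The depth was 21585045 to 26777643 counts per library. In each stage 1 library stood apart from a close pair: green fruit 1, discoloration 1 and initial maturity 2. The chi-square over genes, divided by its degrees of freedom, was 2.56, 1.98 and 3.54 within the close pairs in stage order, and between 42.5 and 255 for the library apart. Whether a close pair came from the same plant is not stated and was not tested, so each n given below counts libraries and not plants. The seed label fits its markers. All 12 seed storage genes had counts, with sums of 17112 to 62511 CPM in green fruit, 283741 to 320222 CPM at discoloration and 245031 to 388776 CPM at initial maturity. Green fruit 1 had 62511 CPM against 17112 and 17877 CPM in green fruit 2 and 3. Initial maturity 2 had 245031 CPM against 373038 and 388776 CPM in initial maturity 1 and 3. All 6 oil body genes had counts, with sums of 2473 to 7014, 31552 to 34780 and 39914 to 50809 CPM in the same order. Their highest sums in green fruit and at initial maturity were those of green fruit 1 (7014 CPM) and initial maturity 2 (50809 CPM).

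Markers of other tissues were summed too. The 21 green tissue genes (chlorophyll-binding proteins and the small Rubisco subunit), all with counts, summed to 1663 to 3890 CPM in green fruit, 608 to 865 CPM at discoloration and 58.5 to 70.1 CPM at initial maturity. Of 35 hull lignification genes 32 had counts, with sums of 287 to 1366, 316 to 597 and 389 to 498 CPM in that order, and green fruit 1 alone (287 CPM) lay below the later stages while green fruit 2 and 3 (1322 and 1366 CPM) lay above them all, and a cellulose synthase 7 gene and a pair of laccase 14 genes were at 0. Of 23 genes of dividing cells 21 had counts, with sums of 167 to 361, 155 to 181 and 218 to 335 CPM, with 361 CPM in green fruit 1 against 169 and 167 CPM in green fruit 2 and 3. Of 8 pollen and flower genes 7 had counts, with sums of 275 to 363, 177 to 194 and 164 to 186 CPM. The part of these tissues in the results was not tested, and in whole seeds fewer cells of a type and less RNA per cell cannot be told apart.

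Of the 58 members 41 passed the filter on low counts and were tested. The other 17 had low counts: 1, an ent-kaurenoic acid oxidase gene (FtPinG0008785000.01), had no count in any library, and the highest total over 9 libraries was 174 counts. That was a GASA8 match (FtPinG0006187600.01), which reached 2.09 CPM in green fruit 3, the highest of any untested snakin or GASA gene, and lay above some tested members there. No untested 20-oxidase gene exceeded 0.14 CPM in a library, no untested 2-oxidase gene 0.58 CPM and no untested gene of early synthesis 0.468 CPM.

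The members' share of all counts was 0.179% to 0.217% in green fruit, 0.323% to 0.338% at discoloration and 0.383% to 0.409% at initial maturity. The stages did not overlap in it. A single gene, Snakin-1, made up much of this. The Snakin-1 gene held 14.7% to 27.3% of member counts in green fruit libraries, 49.5% to 57.2% at discoloration and 53.7% to 56.7% at initial maturity. Without it the members' share was 0.130% to 0.185% in green fruit, 0.143% to 0.163% at discoloration and 0.177% to 0.178% at initial maturity. Green fruit 1 held the lowest share, and green fruit 2 and 3 (0.185% and 0.180%) lay above every later library. The same genes summed to 956 ± 78.0 CPM in green fruit, 1742 ± 200 CPM at discoloration and 2626 ± 150 CPM at initial maturity on the TMM scale, and to 2507 ± 576, 2590 ± 209 and 3190 ± 61.3 FPKM, which carries no such scaling (SD, n = 3 each). Of these sums 1 Snakin-2 gene (FtPinG0000805100.01) alone held 5.52, 785 and 1372 CPM in stage order. In FPKM it held 22.4, 1646 and 2268.

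**Figure D1:**
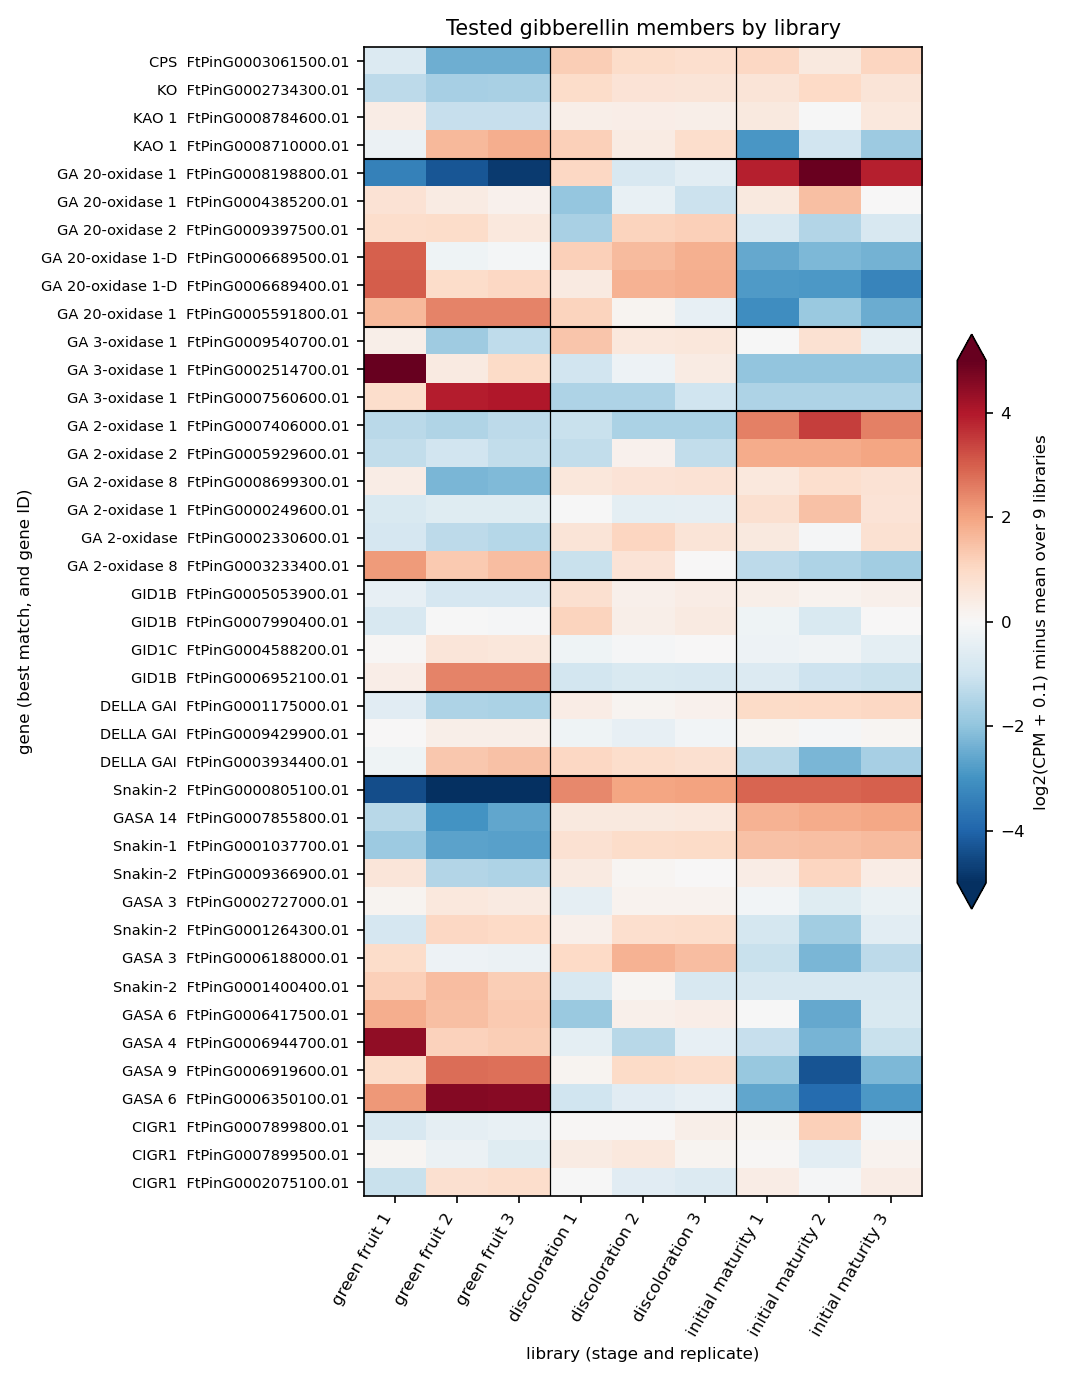
Each row is one of the 41 tested members and each column one library, with colour for log2(CPM + 0.1) minus the gene's mean over 9 libraries, and black lines between roles and between stages. Members of one role run in opposite directions: the Snakin-2 gene FtPinG0000805100.01 is lowest in green fruit (8.25 CPM at most) and the GASA6 gene FtPinG0006350100.01 is highest there (63.2 CPM at least).

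Between green fruit and discoloration 23 of the 41 tested members changed (edgeR quasi-likelihood test, Benjamini-Hochberg adjusted p under 0.05), 12 higher and 11 lower at discoloration. This was 56.1% of members, where 39.5% of all 23631 tested genes changed, 19.5% higher and 19.9% lower. Between discoloration and initial maturity 17 members changed, 6 higher and 11 lower at initial maturity. That was 41.5% of members against 36.4% of all genes, with 16.0% of all genes higher and 20.4% lower. Over the whole interval 32 members changed, 13 higher and 19 lower at initial maturity, or 78.0% of members against 60.8% of all genes (28.3% higher and 32.5% lower). The median log2 fold change of members was -0.04, -0.35 and -0.15 in these 3 comparisons, beside -0.04, -0.02 and -0.06 for all genes. The CPM of the compared stages did not overlap for 28 members (68.3%), 22 (53.7%) and 32 (78.0%), against 54.2%, 58.5% and 66.1% of all tested genes. Holding the genes with a stage at 0 counts at their bounds left the members' medians at these values.

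These counts depended on single libraries and on the scaling. Without the 3 libraries that stood apart 37, 31 and 39 members changed, and with each close pair added together as 1 library 9, 6 and 25 did. Leaving out discoloration 3 alone gave 14 members in the first comparison and 11 in the second. Scaling by library totals only, which moved the median of all genes to -1.03, -0.37 and -1.39, gave 7 higher and 20 lower, 6 higher and 13 lower, and 9 higher and 24 lower members. Under it 10.2%, 20.8% and 10.7% of all called genes were higher, in place of 49.5%, 43.9% and 46.6%. In the first comparison this scaling called a smaller share of members than of all genes, where the main fit called a larger one. All fold changes below are on the TMM scale. Where the call of a gene given with its fold change ended with library totals, the value is given beside it. Calls that ended with close pairs added together are not marked gene by gene. In that setting 39 of the 82 called log2 fold changes of single genes did not pass.

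Of the 41 tested members 36 (87.8%) changed in at least 1 of the 3 comparisons, beside 70.5% of all tested genes. Across the adjacent steps 2 members rose at both and 4 fell at both. A rise at discoloration was followed by no called change for 8 members and by a fall for 2, and a fall was followed by no called change for 6 and by a rise for 1. First changes at initial maturity came in 3 members that rose and 5 that fell, and 10 members passed the test at neither adjacent step.

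**Figure D2:**
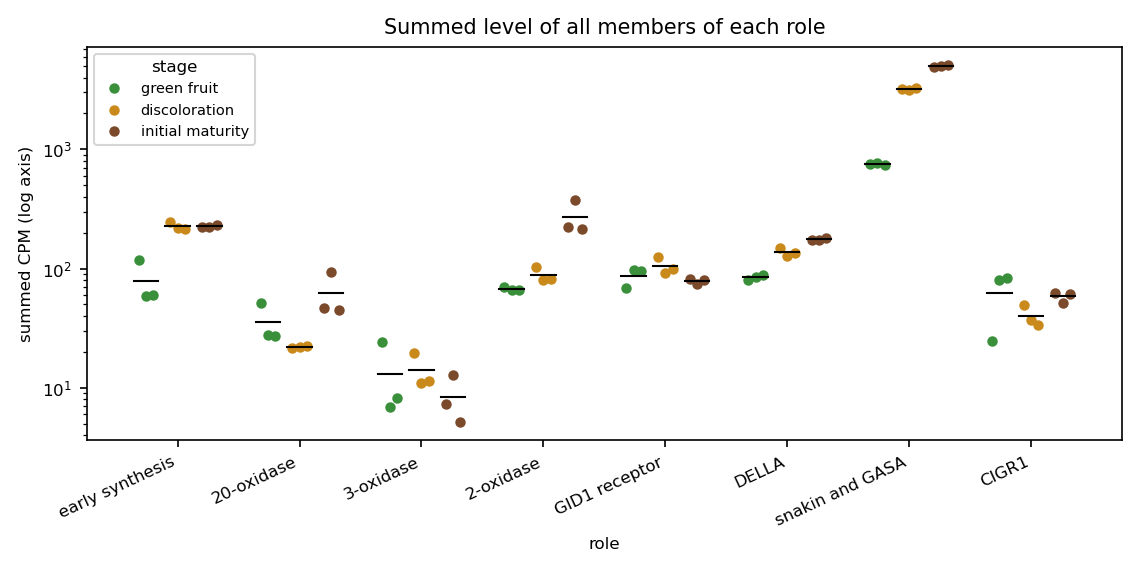
Points are the summed CPM of all members of a role in one library (log axis), bars the mean of 3 libraries, with stages in order from left to right. Snakin and GASA genes sum to 736 to 765 CPM in green fruit, 3164 to 3238 CPM at discoloration and 4856 to 5107 CPM at initial maturity, far above every other role. On the FPKM scale several roles take another order of stages, given with each role.

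Early synthesis was represented by 4 tested genes. Transcripts of ent-copalyl diphosphate synthase and ent-kaurene oxidase rose between green fruit and discoloration. Of the 4 genes 2 rose, where 19.5% of all genes did, and both were still above green fruit at initial maturity, where 28.3% of all genes were higher. The role summed to 78.8 ± 33.1 CPM in green fruit and to 226 CPM at both later stages (SD 17.4 at discoloration and 3.79 at initial maturity, n = 3 each), and to 79.4 ± 23.1, 114 ± 4.0 and 89.5 ± 5.4 FPKM in stage order. Ent-copalyl diphosphate synthase carries out the first committed cyclisation of the pathway. Its gene (FtPinG0003061500.01, chromosome 4, 38211186 to 38215883) had 8.20, 2.39 and 2.37 CPM in green fruit, 31.8, 25.1 and 23.8 CPM at discoloration and 27.5, 19.0 and 28.3 CPM at initial maturity. No green fruit library reached the later stages, though green fruit 1 was above the other two green fruit libraries. The log2 fold change was 2.64 at discoloration against green fruit (SE 0.46, adjusted p = 0.0022) and 2.53 at initial maturity against green fruit (SE 0.46, adjusted p = 0.00121).

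Ent-kaurene oxidase, a cytochrome P450 that oxidises ent-kaurene at the plastid envelope, followed the same course. Its gene (FtPinG0002734300.01, chromosome 7, 1247586 to 1250159) had 29.4, 23.1 and 23.5 CPM in green fruit, 137, 117 and 113 CPM at discoloration and 113, 145 and 114 CPM at initial maturity. The later stages overlapped each other and lay above every green fruit library. Its log2 fold change was 2.27 at discoloration (SE 0.19, adjusted p = 6.0e-05) and 2.29 at initial maturity (SE 0.19, adjusted p = 1.7e-05), each against green fruit.

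The step after it, ent-kaurenoic acid oxidase, was carried by a pair of tested genes that differed. The more abundant one (FtPinG0008784600.01, chromosome 7, 36533109 to 36535174, mean 38.7 FPKM) had 77.2, 26.7 and 26.9 CPM in green fruit, 72.4, 74.4 and 72.7 CPM at discoloration and 82.7, 58.1 and 86.6 CPM at initial maturity. It passed the test in none of the 3 comparisons, and green fruit 1 lay among the later libraries while green fruit 2 and 3 lay below them all. The second (FtPinG0008710000.01, chromosome 6, 27117350 to 27120353, mean 2.78 FPKM) had 1.68, 6.57 and 7.58 CPM in green fruit, 4.90, 2.75 and 3.88 CPM at discoloration and 0.191, 1.01 and 0.515 CPM at initial maturity. Its level was lowest at initial maturity in every library. It fell by 2.73 on the log2 scale at initial maturity against discoloration (SE 0.67, adjusted p = 0.0126) and by 3.19 against green fruit (SE 0.67, adjusted p = 0.00265). The first of these lies beside 2 other ent-kaurenoic acid oxidase models on chromosome 7 (together 36533109 to 36562548), both untested.

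Ent-kaurene synthase, the cyclase between the copalyl step and the oxidase, is named ent-kaur-16-ene synthase in Swiss-Prot and so fell outside the rule. Its gene (FtPinG0004625100.01), added after its values were seen, had 15.5, 15.5 and 15.1 CPM in green fruit, 27.2, 33.6 and 32.6 CPM at discoloration and 18.6, 15.2 and 19.5 CPM at initial maturity. In CPM it was highest at discoloration without overlap. In FPKM green fruit (9.44 to 11.5 FPKM) and discoloration (9.14 to 12.1 FPKM) overlapped. The fitted log2 fold change was 1.02 at discoloration against green fruit (SE 0.15, adjusted p = 9.0e-04), which became 0.03 with library totals only (adjusted p = 0.875). At initial maturity it fell by 0.81 against discoloration (SE 0.15, adjusted p = 0.00345).

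**Figure D3:**
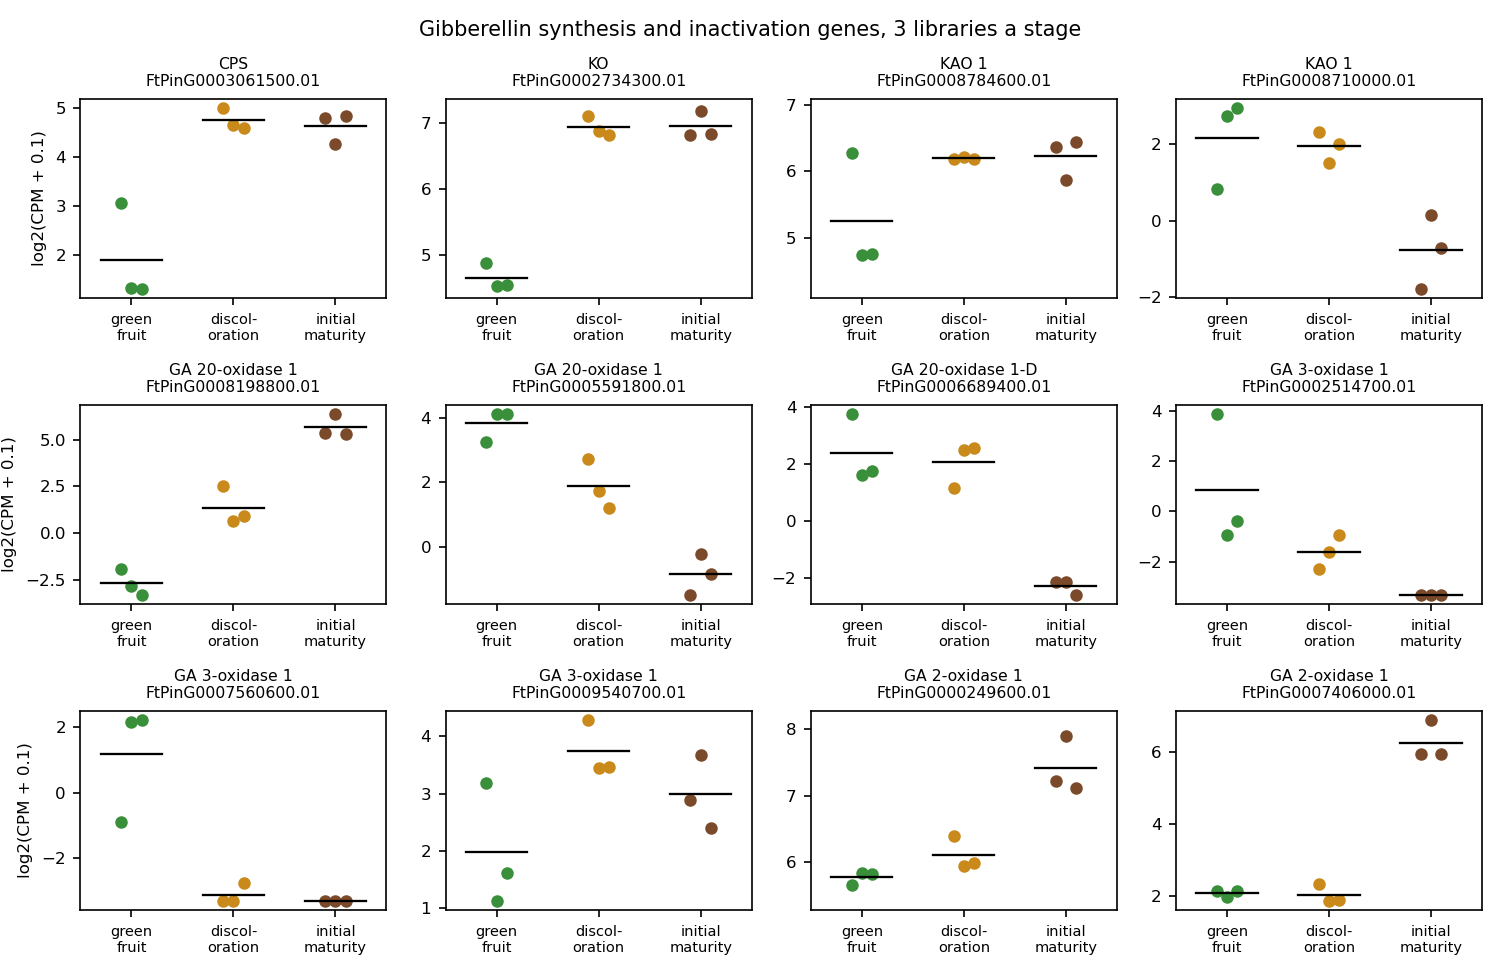
Each panel plots log2(CPM + 0.1) of one synthesis or inactivation gene in 9 libraries, with points for libraries, bars for the mean of 3, and a separate vertical scale in each panel. The 20-oxidase gene FtPinG0008198800.01 and the 2-oxidase gene FtPinG0007406000.01 are highest at initial maturity (40.4 to 83.8 CPM and 62.0 to 120 CPM), and the 3-oxidase genes FtPinG0002514700.01 and FtPinG0007560600.01 are at 0 there.

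Gibberellin 20-oxidases carry out the successive oxidations that precede the active hormone, and their genes moved in both directions. Of 6 tested genes, 1 was higher and 4 were lower at initial maturity than in green fruit, where 28.3% of all genes were higher and 32.5% lower. The gene that rose (FtPinG0008198800.01, chromosome 7, 37063231 to 37065157, matched to 20-oxidase 1) had 0.165, 0.0408 and 0 CPM in green fruit, 5.61, 1.47 and 1.82 CPM at discoloration and 41.0, 83.8 and 40.4 CPM at initial maturity. Each stage lay wholly above the one before. The log2 fold change was 5.40 at discoloration against green fruit (SE 0.85, adjusted p = 0.00136), 4.22 at initial maturity against discoloration (SE 0.61, adjusted p = 0.00117) and 9.63 over the whole interval (SE 0.85, adjusted p = 2.4e-05). At its peak, initial maturity, it held most of the role's summed level. The role summed to 35.4 ± 13.9 CPM in green fruit, 21.9 ± 0.436 CPM at discoloration and 61.8 ± 28 CPM at initial maturity (SD, n = 3 each). On the FPKM scale green fruit had the highest mean, with 51.1 ± 13.3, 16.2 ± 1.01 and 34.0 ± 13.2 FPKM in stage order.

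The opposite course was seen in another 20-oxidase 1 gene (FtPinG0005591800.01, chromosome 8, 34026344 to 34027957). It had 9.38, 17.2 and 17.0 CPM in green fruit, 6.48, 3.24 and 2.20 CPM at discoloration and 0.255, 0.758 and 0.451 CPM at initial maturity. No stage overlapped the next. It fell by 1.87 on the log2 scale at discoloration (SE 0.43, adjusted p = 0.00776), and by 3.01 at initial maturity against discoloration (SE 0.53, adjusted p = 0.00302).

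A neighbouring pair of 20-oxidase genes on chromosome 4 (2486891 to 2496155, 5409 bases apart, on opposite strands) fell at initial maturity. One of them (FtPinG0006689400.01) had 13.3, 2.96 and 3.22 CPM in green fruit, 2.14, 5.42 and 5.70 CPM at discoloration and 0.127, 0.126 and 0.0644 CPM at initial maturity. The other (FtPinG0006689500.01) had 22.6, 2.37 and 2.58 CPM in green fruit, 6.38, 8.48 and 9.62 CPM at discoloration and 0.382, 0.505 and 0.451 CPM at initial maturity. Both were above the other green fruit libraries in green fruit 1. They fell by 5.32 (SE 0.91, adjusted p = 0.00248) and by 4.18 (SE 0.97, adjusted p = 0.00987) on the log2 scale at initial maturity against discoloration. Against green fruit FtPinG0006689400.01 fell by 5.87 (SE 0.90, adjusted p = 4.4e-04) and FtPinG0006689500.01 by 4.34 (SE 0.97, adjusted p = 0.0037), or by 2.45 without green fruit 1. At discoloration against green fruit the pair did not pass the test (log2 fold changes of -0.55, adjusted p = 0.489, and -0.16, adjusted p = 0.882), and without the 3 libraries that stand apart they were 0.86 (adjusted p = 4.4e-05) and 1.88 (adjusted p = 1.0e-11). How reads that match more than 1 gene were counted is not stated, so values of similar neighbours are uncertain.

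The last tested 20-oxidase genes were weakly expressed. FtPinG0004385200.01 had 5.01, 3.96 and 3.52 CPM in green fruit, 0.714, 2.27 and 1.35 CPM at discoloration and 4.20, 8.66 and 3.03 CPM at initial maturity, so discoloration was lowest. It fell by 1.51 at discoloration (SE 0.47, adjusted p = 0.0305) and was 1.86 higher at initial maturity than at discoloration (SE 0.48, adjusted p = 0.0156). The first call was lost without any of 3 libraries (green fruit 2, discoloration 1 or 3, adjusted p = 0.0587 to 0.0944) and the second without discoloration 3 (0.0599) or initial maturity 2 (0.057). FtPinG0009397500.01, matched to 20-oxidase 2, stayed at or under 1.31 CPM and fell by 2.15 at initial maturity against green fruit (SE 0.77, adjusted p = 0.0353), a call lost without any of 5 libraries (adjusted p = 0.0521 to 0.112).

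Gibberellin 3-oxidases make the active hormone, and 2 of the 3 genes went to 0 counts at initial maturity. FtPinG0007560600.01 (chromosome 4, 26862391 to 26863605) had 0.440, 4.41 and 4.59 CPM in green fruit, 0, 0 and 0.0467 CPM at discoloration and 0 CPM in all initial maturity libraries. A single count at discoloration stood against 412 in green fruit, a 210-fold lower level with a 95% exact interval of 37.5-fold to 8320-fold for counting error (edgeR adjusted p = 0.00504). At initial maturity it was at least 49.4-fold lower than in green fruit (adjusted p = 0.00266), against a floor of 3 counts over the stage.

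FtPinG0002514700.01 (chromosome 5, 4610175 to 4611589) had 14.5, 0.428 and 0.663 CPM in green fruit, 0.102, 0.222 and 0.420 CPM at discoloration and 0 CPM at initial maturity. Nearly all of its signal came from green fruit 1. It was at least 81.8-fold lower at initial maturity than in green fruit (edgeR adjusted p = 0.0148), or at least 8.55-fold without green fruit 1. At discoloration it did not pass the test against green fruit (adjusted p = 0.0554).

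The third 3-oxidase gene kept its expression. FtPinG0009540700.01 (chromosome 2, 5689819 to 5691056) had 9.02, 2.08 and 2.96 CPM in green fruit, 19.4, 10.8 and 11 CPM at discoloration and 7.33, 12.7 and 5.15 CPM at initial maturity. Discoloration lay above green fruit, by 1.55 on the log2 scale (SE 0.55, adjusted p = 0.0488), or by 0.63 with library totals only (adjusted p = 0.245). In FPKM the stages overlapped, with 12.1 FPKM in green fruit 1 and 8.55 FPKM in discoloration 2. The call was lost without any of 7 libraries (adjusted p = 0.0558 to 0.158), and the value was 2.45 without green fruit 1 (adjusted p = 0.00125). The 3-oxidase role summed to 13.0 ± 9.51 CPM in green fruit, 14 ± 4.80 CPM at discoloration and 8.39 ± 3.89 CPM at initial maturity (SD, n = 3 each). Without green fruit 1 the green fruit mean was 7.57 CPM, below both later stages. On the FPKM scale the sums were 24.0 ± 19.1, 10.9 ± 3.15 and 5.02 ± 2.04 FPKM in stage order, with green fruit at 12.9 FPKM without green fruit 1.

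Gibberellin 2-oxidases inactivate the hormone, and 4 of their 6 tested genes were higher and 1 was lower at initial maturity than in green fruit, where 28.3% of all genes were higher and 32.5% lower. With library totals only, 2 were higher and 1 was lower. Their summed level was 67.0 ± 2.02 CPM in green fruit, 88.1 ± 12 CPM at discoloration and 271 ± 87.8 CPM at initial maturity (SD, n = 3 each). On the FPKM scale discoloration was lowest, with 104 ± 6.37, 70.3 ± 6.15 and 166 ± 43.2 FPKM in stage order. The most abundant gene (FtPinG0000249600.01, chromosome 1, 3795917 to 3797250, mean 80.4 FPKM) had 50.3, 57.1 and 56.2 CPM in green fruit, 84.2, 61.5 and 63.4 CPM at discoloration and 149, 238 and 139 CPM at initial maturity. The initial maturity libraries lay above all others. Its log2 fold change was 1.33 at initial maturity against discoloration (SE 0.24, adjusted p = 0.00326) and 1.68 against green fruit (SE 0.24, adjusted p = 3.1e-04), the second of which became 0.32 with library totals only (adjusted p = 0.203).

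A second 2-oxidase 1 gene rose more steeply (FtPinG0007406000.01, chromosome 5, 30467024 to 30468308). It had 4.24, 3.77 and 4.29 CPM in green fruit, 4.95, 3.51 and 3.55 CPM at discoloration and 62.0, 120 and 62.0 CPM at initial maturity. Green fruit and discoloration overlapped, and initial maturity was far above both. The fitted log2 fold change was 4.34 against discoloration (SE 0.31, adjusted p = 1.0e-04) and 4.31 against green fruit (SE 0.30, adjusted p = 8.7e-06).

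A weaker 2-oxidase gene rose at the first step. FtPinG0002330600.01 (chromosome 8, 642943 to 645432) had 0.633, 0.428 and 0.383 CPM in green fruit, 1.94, 2.62 and 1.92 CPM at discoloration and 1.72, 1.14 and 2.12 CPM at initial maturity. It was higher at discoloration than in green fruit by 2.16 (SE 0.35, adjusted p = 0.00164) and at initial maturity by 1.78 (SE 0.36, adjusted p = 0.00211), the second becoming 0.48 with library totals only (adjusted p = 0.234). Its model overlaps an unnamed one by 228 bases on the same strand, so its reads may be shared. FtPinG0005929600.01, matched to 2-oxidase 2, had a total of 1 count in green fruit, 4 counts at discoloration and 37 counts at initial maturity. That was 97.9-fold higher at initial maturity than in green fruit, with a 95% exact interval of 16.5-fold to 3970-fold for counting error (edgeR adjusted p = 7.8e-04). Against discoloration the log2 fold change was 3.56 (SE 0.88, adjusted p = 0.013), or 7.40 without discoloration 2, and the call was lost without discoloration 3 (adjusted p = 0.0545).

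The 2-oxidase 8 genes differed from the others. FtPinG0003233400.01 (chromosome 3, 1371481 to 1374111) had 5.17, 2.90 and 3.39 CPM in green fruit, 0.459, 1.82 and 1.12 CPM at discoloration and 0.382, 0.316 and 0.258 CPM at initial maturity. It was the only tested 2-oxidase gene that fell. It fell by 1.74 at discoloration (SE 0.45, adjusted p = 0.014), fell by 1.82 at initial maturity against discoloration (SE 0.54, adjusted p = 0.0277) and fell by 3.56 over the interval (SE 0.53, adjusted p = 3.8e-04). The first call was lost without discoloration 3 (adjusted p = 0.0521) and the second without any of 5 libraries, namely discoloration 2 or 3 or any of initial maturity (0.0599 to 0.11). FtPinG0008699300.01 had 8.91, 1.31 and 1.40 CPM in green fruit, 10.2, 10.9 and 11.3 CPM at discoloration and 9.87, 12.3 and 11.3 CPM at initial maturity, and did not pass the test against green fruit at discoloration (adjusted p = 0.0898) or at initial maturity (adjusted p = 0.0612). Its green fruit 1 value was close to the later stages.

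GID1 proteins are the soluble receptors of the hormone, and all 4 genes changed between green fruit and discoloration, 2 higher and 2 lower, where 39.5% of all genes changed. Of these calls 2 were lost without single libraries, as given with the genes, and with library totals only 2 genes were lower and the other two did not pass. The role summed to 86.9 ± 15.8 CPM in green fruit, 105 ± 17.5 CPM at discoloration and 79.2 ± 4.08 CPM at initial maturity (SD, n = 3 each). On the FPKM scale green fruit was highest and initial maturity lowest in the mean, with 109 ± 28.6, 66.5 ± 8.13 and 39.6 ± 4.12 FPKM in stage order. The highest mean over 9 libraries was that of GID1C (FtPinG0004588200.01, chromosome 4, 5700541 to 5702545, mean 26.1 FPKM), with 27.9, 41.1 and 39.6 CPM in green fruit, 23.0, 25.9 and 26.9 CPM at discoloration and 22.3, 23.8 and 19.0 CPM at initial maturity. Against green fruit it fell by 0.52 at discoloration (SE 0.18, adjusted p = 0.0427) and fell by 0.74 at initial maturity (SE 0.18, adjusted p = 0.00562). The first call was lost without any of 7 libraries (adjusted p = 0.0556 to 0.144).

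A GID1B gene of like mean (FtPinG0005053900.01, chromosome 4, 36168299 to 36170108, mean 25.2 FPKM) had 25.7, 18.9 and 18.9 CPM in green fruit, 59.5, 40.9 and 43.9 CPM at discoloration and 41.7, 38.2 and 41.0 CPM at initial maturity. Both later stages lay above green fruit. Per length, GID1C had the higher mean level only in green fruit, 49.6 against 25.9 FPKM for this gene, and the lower one at discoloration (17.2 against 29.8 FPKM) and at initial maturity (11.6 against 19.8 FPKM). The log2 fold change was 1.18 at discoloration (SE 0.19, adjusted p = 0.00145), or 0.20 with library totals only (adjusted p = 0.267). Initial maturity stood at 0.93 (SE 0.19, adjusted p = 0.00224), which turned to -0.39 with library totals only (adjusted p = 0.0459).

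Its neighbour 44827 bases away (FtPinG0006952100.01, also GID1B, chromosome 4, 36120008 to 36123471) went the other way. It had 4.10, 18.2 and 18.4 CPM in green fruit, 1.63, 1.87 and 1.78 CPM at discoloration and 1.97, 1.52 and 1.42 CPM at initial maturity. It fell by 2.94 on the log2 scale at discoloration (SE 0.51, adjusted p = 0.00202) and fell by 3.05 at initial maturity (SE 0.52, adjusted p = 8.1e-04), each against green fruit. The third GID1B gene (FtPinG0007990400.01, chromosome 1, 17400234 to 17402222) had 10.9, 18.6 and 18.3 CPM in green fruit, 40.9, 23.1 and 26.1 CPM at discoloration and 16.4, 11.1 and 19.4 CPM at initial maturity. It peaked at discoloration, 0.91 above green fruit (SE 0.30, adjusted p = 0.0367), which turned to -0.12 with library totals only (adjusted p = 0.752), and fell by 0.94 at initial maturity against discoloration (SE 0.30, adjusted p = 0.0361). The first call was lost without any of 6 libraries (adjusted p = 0.0532 to 0.134) and the second without any of 4 (0.063 to 0.12).

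DELLA proteins repress gibberellin responses, and the 3 genes, all matched to GAI, each took a different course. The role summed to 84.4 ± 3.51 CPM in green fruit, 137 ± 10.3 CPM at discoloration and 177 ± 2.89 CPM at initial maturity (SD, n = 3 each). On the FPKM scale, which carries no correction for composition, the sums were 87.7 ± 17.5, 65.8 ± 2.45 and 62.3 ± 4.19 FPKM. The gene with the highest mean over 9 libraries (FtPinG0001175000.01, chromosome 4, 328814 to 330792, mean 41.9 FPKM) had 53.6, 27.2 and 26.8 CPM in green fruit, 103, 88.0 and 93.4 CPM at discoloration and 155, 160 and 162 CPM at initial maturity. Each stage lay above the one before in CPM. In FPKM the gene had 40.5 FPKM in green fruit 1 and 39.3 FPKM in discoloration 2, so those stages overlapped. Its log2 fold change was 1.40 at discoloration (SE 0.27, adjusted p = 0.00341), which became 0.45 with library totals only (adjusted p = 0.0703), and 2.15 at initial maturity (SE 0.27, adjusted p = 1.7e-04), each against green fruit. The second step alone did not pass the test (0.75, SE 0.26, adjusted p = 0.0523).

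A second DELLA gene (FtPinG0003934400.01, chromosome 2, 58647276 to 58648724) had 14.4, 42.3 and 45.6 CPM in green fruit, 34.6, 31.0 and 29.3 CPM at discoloration and 6.24, 3.35 and 5.15 CPM at initial maturity. Initial maturity lay below every other library. In green fruit its mean level per length was above that of the first DELLA gene, 41.8 against 30.1 FPKM. The gene fell by 2.69 there against discoloration (SE 0.42, adjusted p = 0.00164) and by 2.79 against green fruit (SE 0.42, adjusted p = 3.9e-04). The third (FtPinG0009429900.01, chromosome 3, 22739488 to 22741059) varied little, with 12.7, 15.2 and 15.2 CPM in green fruit, 10.8, 9.24 and 11.2 CPM at discoloration and 13.8, 11.8 and 13.2 CPM at initial maturity. It fell by 0.46 on the log2 scale at discoloration against green fruit (SE 0.15, adjusted p = 0.0331), a call lost without any of 6 libraries (adjusted p = 0.0532 to 0.127).

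**Figure D4:**
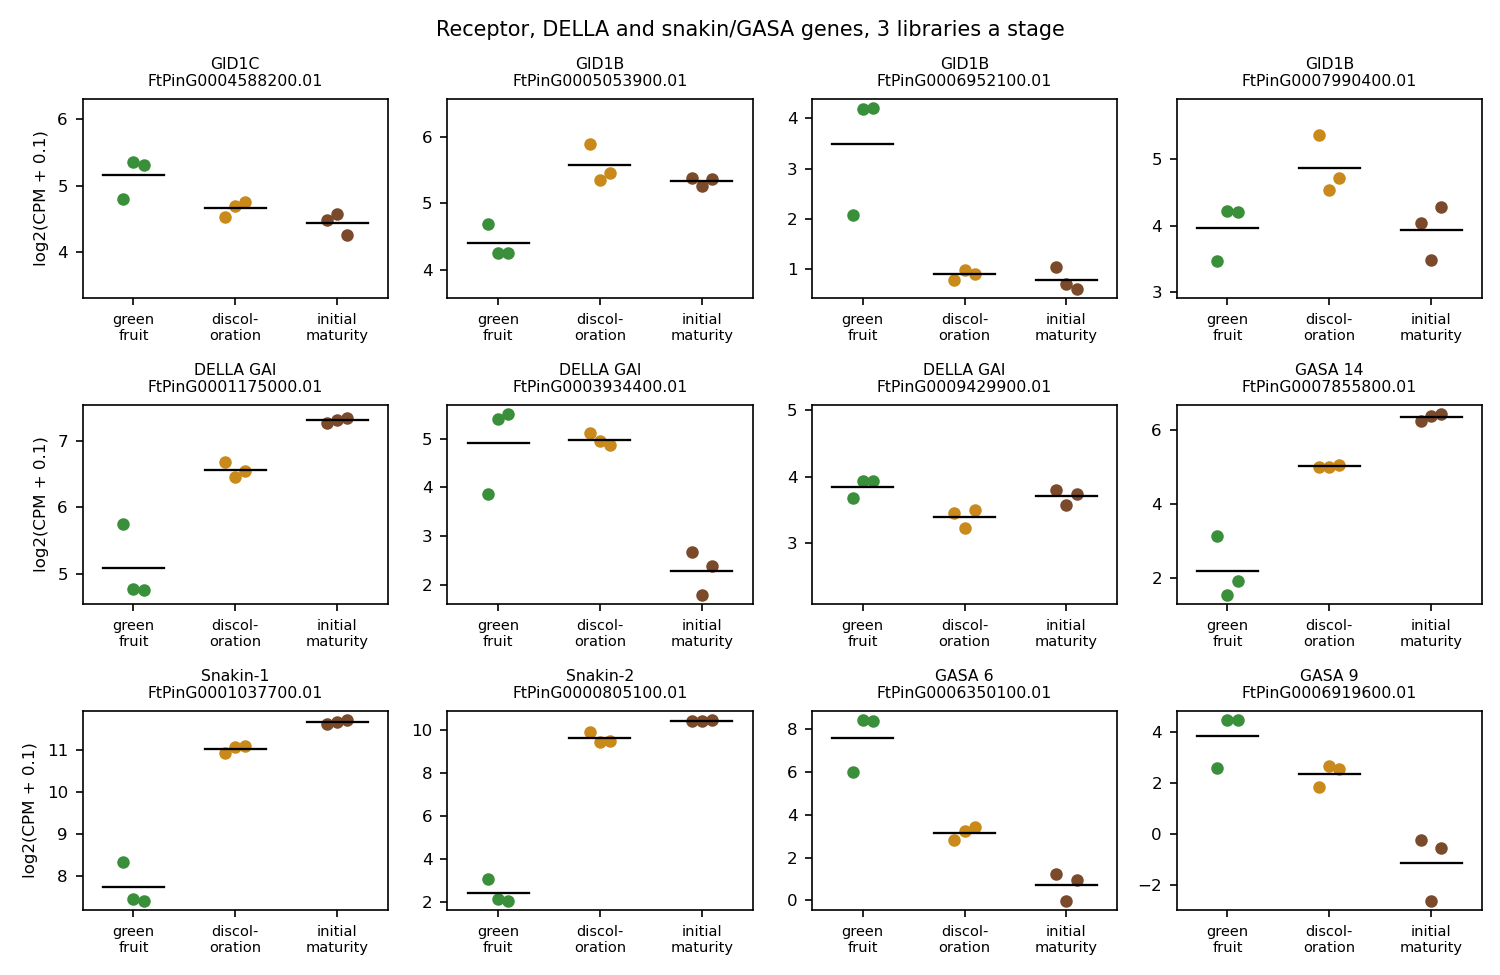
Each panel plots log2(CPM + 0.1) of one receptor, DELLA, snakin or GASA gene in 9 libraries, with points for libraries, bars for the mean of 3, and a separate vertical scale in each panel. The DELLA gene FtPinG0001175000.01 climbs to 155 to 162 CPM at initial maturity while FtPinG0003934400.01 ends at 3.35 to 6.24 CPM, and GASA6 and GASA9 run down as Snakin-1, Snakin-2 and GASA14 run up.

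The snakin and GASA genes held the most abundant members and ran in both directions. Of 12 tested, 4 rose and 4 fell at discoloration against green fruit, 1 rose and 4 fell at initial maturity against discoloration, and 3 were higher and 8 lower at initial maturity than in green fruit. Of all genes 19.5% rose and 19.9% fell in the first of these comparisons, 16.0% and 20.4% in the second, and 28.3% and 32.5% in the third. Of the 12 genes 8 were lower at the end, while the role's summed level was highest there: 752 ± 14.8 CPM in green fruit, 3200 ± 37.0 CPM at discoloration and 5001 ± 130 CPM at initial maturity (SD, n = 3 each). In FPKM the order was the same, 2770 ± 339, 6008 ± 206 and 7386 ± 379. Snakin-1, an antimicrobial peptide in potato, had the highest mean of all members at 3061 FPKM. Its gene (FtPinG0001037700.01, chromosome 1, 23832413 to 23833015) had 326, 178 and 171 CPM in green fruit, 1937, 2140 and 2194 CPM at discoloration and 3164, 3247 and 3358 CPM at initial maturity. The stages did not overlap. The fitted log2 fold change was 3.22 at discoloration (SE 0.37, adjusted p = 3.1e-04) and 3.86 at initial maturity (SE 0.39, adjusted p = 4.4e-05), each against green fruit, and the step between the later stages did not pass the test.

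A Snakin-2 gene (FtPinG0000805100.01, chromosome 2, 51876634 to 51882015) had the next highest mean, 1312 FPKM, of which green fruit held 22.4 ± 6.77 FPKM (SD, n = 3). It had 8.25, 4.30 and 4.01 CPM in green fruit, 945, 693 and 718 CPM at discoloration and 1351, 1359 and 1406 CPM at initial maturity. The log2 fold change was 7.15 at discoloration (SE 0.42, adjusted p = 1.1e-05) and 7.96 at initial maturity (SE 0.43, adjusted p = 3.7e-06), each against green fruit. The later step did not pass (0.80, SE 0.32, adjusted p = 0.077), though its stages did not overlap.

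GASA14, whose Arabidopsis protein is known for a role in leaf growth and tolerance of abiotic stress, rose at both steps. Its gene (FtPinG0007855800.01, chromosome 2, 12924412 to 12926755) had 8.66, 2.79 and 3.65 CPM in green fruit, 32.0, 31.8 and 33.1 CPM at discoloration and 75.5, 82.7 and 86.5 CPM at initial maturity. Its log2 fold change was 2.69 at discoloration against green fruit (SE 0.37, adjusted p = 6.7e-04) and 4.02 at initial maturity against green fruit (SE 0.39, adjusted p = 3.6e-05). Between the later stages it was 1.34 (SE 0.35, adjusted p = 0.0159), a call lost without discoloration 2 (adjusted p = 0.0593) or 3 (0.0564).

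GASA6, named for an Arabidopsis regulator of germination that gibberellin induces, had the steepest fall among members with counts in every library. Its gene (FtPinG0006350100.01, chromosome 4, 3919752 to 3920365, mean 336 FPKM) had 63.2, 345 and 332 CPM in green fruit, 6.99, 9.42 and 10.7 CPM at discoloration and 2.23, 0.885 and 1.87 CPM at initial maturity. Green fruit 1 held less than the other green fruit libraries and still lay above every later one. It fell by 4.77 on the log2 scale at discoloration (SE 0.63, adjusted p = 5.7e-04) and by 7.21 at initial maturity (SE 0.72, adjusted p = 4.5e-05), each against green fruit. Between the later stages it fell by 2.44 (SE 0.62, adjusted p = 0.0145), a call lost without initial maturity 2 (adjusted p = 0.0565). The green tissue genes were likewise lowest in green fruit 1 among the green fruit libraries, with 1663 CPM in library 1 against 3679 and 3890 CPM in libraries 2 and 3. So were the hull lignification genes (287 against 1322 and 1366 CPM) and the pollen and flower genes (275 against 355 and 363 CPM). The seed storage, oil body and dividing cell genes were highest in green fruit 1. The part of these tissues in this result was not tested.

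GASA9 (FtPinG0006919600.01, chromosome 7, 42698890 to 42700866) also ran down, with 5.94, 22.0 and 21.8 CPM in green fruit, 3.47, 6.22 and 5.75 CPM at discoloration and 0.764, 0.0632 and 0.580 CPM at initial maturity. It fell by 1.68 at discoloration against green fruit (SE 0.55, adjusted p = 0.035), with overlap and with the call lost without any of 6 libraries (adjusted p = 0.0523 to 0.116). By initial maturity the gene fell by 3.45 against discoloration (SE 0.70, adjusted p = 0.00544) and fell by 5.13 against green fruit (SE 0.70, adjusted p = 2.4e-04).

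A GASA3 gene (FtPinG0006188000.01, chromosome 1, 19089310 to 19089964) rose and then fell, with 10.1, 4.33 and 4.29 CPM in green fruit, 10.6, 17.9 and 15.6 CPM at discoloration and 2.36, 1.01 and 2.06 CPM at initial maturity. Discoloration was 1.24 above green fruit (SE 0.40, adjusted p = 0.0339), a call lost without any of 4 libraries (adjusted p = 0.09 to 0.115) and 0.31 with library totals only (adjusted p = 0.467). At initial maturity it fell by 3.02 against discoloration (SE 0.45, adjusted p = 0.00132) and fell by 1.78 against green fruit (SE 0.43, adjusted p = 0.00595). It opens a run of 3 GASA genes on chromosome 1 (19089310 to 19107762), of which the other two were under the filter.

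The remaining GASA genes that changed were lower at the later stage. The second GASA3 gene (FtPinG0002727000.01, mean 220 FPKM) had 93.3, 121 and 116 CPM in green fruit, 61.7, 96.4 and 95.9 CPM at discoloration and 76.1, 55.7 and 67.5 CPM at initial maturity. At initial maturity it fell by 0.73 against green fruit (SE 0.22, adjusted p = 0.0177), a call lost without any of 3 libraries (adjusted p = 0.0505 to 0.057). GASA4 (FtPinG0006944700.01) had 10.8, 1.02 and 1.07 CPM in green fruit and at most 0.280 CPM later. It fell by 4.35 at discoloration (SE 1.09, adjusted p = 0.0119), or by 2.31 without green fruit 1, a call lost without discoloration 2 (adjusted p = 0.0512). By initial maturity it fell by 5.58 (SE 1.27, adjusted p = 0.00421), or by 3.54 without green fruit 1. The second GASA6 gene (FtPinG0006417500.01) had 16.4, 13.0 and 11.5 CPM in green fruit, 1.17, 5.46 and 5.75 CPM at discoloration and 4.46, 0.695 and 2.64 CPM at initial maturity. It fell by 2.39 at initial maturity against green fruit (SE 0.65, adjusted p = 0.01), and the step to discoloration did not pass (adjusted p = 0.0511).

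The other 3 tested Snakin-2 matches were less uniform. FtPinG0009366900.01, with a mean of 300 FPKM, had 205, 49.0 and 47.0 CPM in green fruit, 187, 145 and 139 CPM at discoloration and 174, 289 and 175 CPM at initial maturity. It passed the test in no comparison, and its green fruit 1 value was level with the later stages. FtPinG0001264300.01 had 5.83, 22.2 and 21.2 CPM in green fruit, 12.8, 19.0 and 19.8 CPM at discoloration and 5.73, 3.10 and 7.28 CPM at initial maturity. At initial maturity it fell by 1.68 against discoloration (SE 0.49, adjusted p = 0.0261) and fell by 1.62 against green fruit (SE 0.49, adjusted p = 0.0173). These calls were lost without any of 4 libraries (adjusted p = 0.0661 to 0.0879) and of 3 libraries (0.0515 to 0.0654). Green fruit and initial maturity overlapped for this gene, with 5.83 CPM in green fruit 1 and 7.28 CPM in initial maturity 3. FtPinG0001400400.01 reached 0.408 CPM in green fruit at most. With 2 counts at discoloration against 43 in green fruit it was 11-fold lower, with a 95% exact interval of 2.86-fold to 93.4-fold for counting error (edgeR adjusted p = 0.0225), a call lost without any of 4 libraries (adjusted p = 0.0534 to 0.0862). At initial maturity, with no counts, it was at least 5.32-fold lower than in green fruit (adjusted p = 0.00665).

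CIGR1, a GRAS family protein related to DELLA proteins, was matched by 3 genes. They summed to 62.5 ± 32.9 CPM in green fruit, 39.9 ± 8.13 CPM at discoloration and 58.4 ± 5.78 CPM at initial maturity (SD, n = 3 each), and to 66.0 ± 38.5, 20.1 ± 3.33 and 23.4 ± 3.69 FPKM in that order. FtPinG0002075100.01 (chromosome 7, 10811428 to 10813770, mean 33.0 FPKM) had 19.8, 75.1 and 78.4 CPM in green fruit, 41.7, 29.1 and 26.3 CPM at discoloration and 55.1, 41.2 and 55.1 CPM at initial maturity, and passed the test in no comparison. The others overlap by 1206 bases on opposite strands of chromosome 5 (30110739 to 30114951), and since the library kit does not mark the strand their reads there cannot be told apart. FtPinG0007899500.01 stayed between 1.63 and 3.64 CPM in all libraries and passed in no comparison. FtPinG0007899800.01 had 2.15, 2.73 and 2.91 CPM in green fruit, 3.98, 3.95 and 4.72 CPM at discoloration and 4.20, 8.78 and 3.54 CPM at initial maturity. It was 1.08 higher at initial maturity than in green fruit (SE 0.34, adjusted p = 0.0192), which turned to -0.29 with library totals only (adjusted p = 0.436) and was 0.58 without initial maturity 2, where the call was lost (adjusted p = 0.0591).

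**Figure D5:**
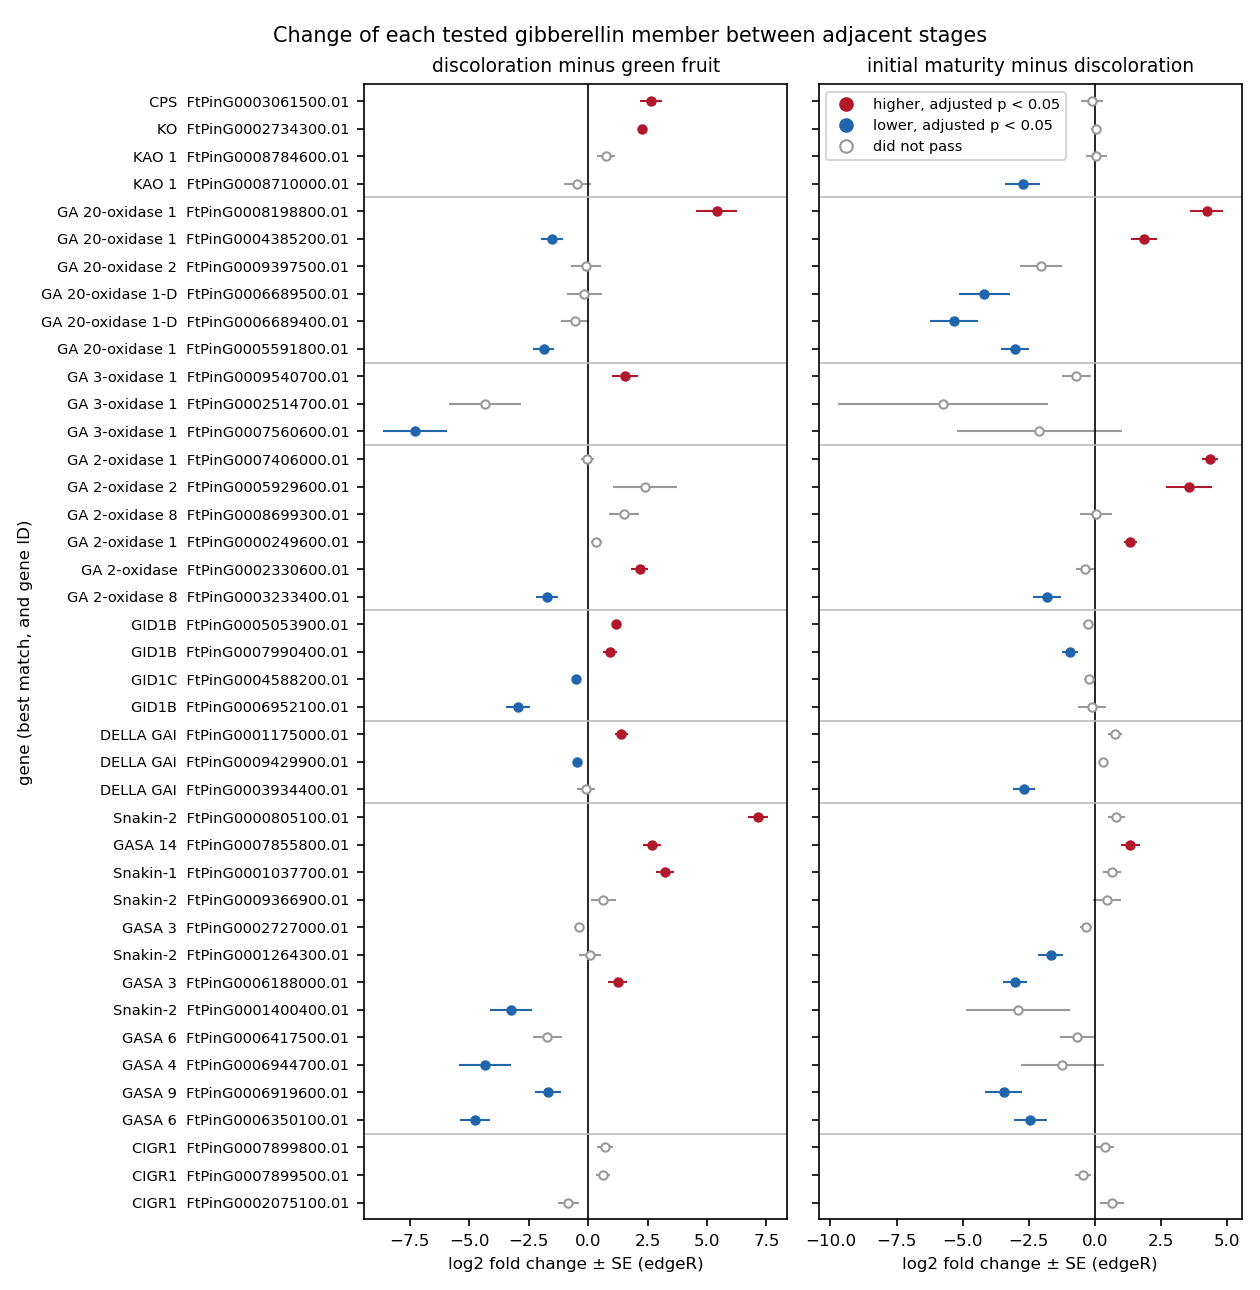
Points are log2 fold changes of the 41 tested members with their SE (bars), at discoloration against green fruit (left) and initial maturity against discoloration (right), filled where the adjusted p was under 0.05. The Snakin-2 gene FtPinG0000805100.01 stands at 7.15 on the left and the 2-oxidase gene FtPinG0007406000.01 at 4.34 on the right. The widest bars belong to genes with few or no counts in one of the stages, whose fitted values depend on the model's prior count. Bars are also wide for some genes with more counts whose libraries differ within a stage. One is the 20-oxidase gene FtPinG0006689500.01 (SE 0.74 on the left), with 820, 116 and 101 counts in green fruit.

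Genes elsewhere in the pathway were taken from a second list of protein names, with 55 genes of which 42 were tested. At discoloration 11 rose and 11 fell against green fruit, at initial maturity 7 rose and 9 fell against discoloration, and 12 were higher and 20 lower at initial maturity than in green fruit. These were 52.4%, 38.1% and 76.2% of the list, beside 39.5%, 36.4% and 60.8% of all tested genes, so the second share was close to that of all genes. Scaling by library totals only gave 7 higher and 26 lower, 4 higher and 11 lower, and 5 higher and 30 lower. PIF transcription factors, which DELLA proteins bind and hold from DNA in Arabidopsis, had 7 higher and 2 lower of 9 tested at initial maturity against green fruit, a comparison in which 28.3% of all genes were higher and 32.5% lower. With library totals only, 4 PIF genes were higher and 3 lower. A PIF3 gene (FtPinG0006924900.01) had 21.5, 11.9 and 13.3 CPM in green fruit, 102, 97.6 and 92.2 CPM at discoloration and 233, 255 and 229 CPM at initial maturity, with log2 fold changes of 2.65 at discoloration (SE 0.24, adjusted p = 1.0e-04) and 3.94 at initial maturity (SE 0.26, adjusted p = 6.9e-06), each against green fruit. A short second PIF3 model (FtPinG0002714200.01) had 0.220, 0.0612 and 0.0255 CPM in green fruit, 41.6, 21.5 and 20.1 CPM at discoloration and 92.2, 91.7 and 94.5 CPM at initial maturity, 9.83 above green fruit on the log2 scale (SE 0.55, adjusted p = 4.0e-06).

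Alpha-amylases, starch-degrading enzymes that gibberellin induces in germinating cereal grain, had 4 higher and 1 lower of 8 tested at initial maturity against green fruit, or 62.5% called, close to the 60.8% of all genes. With library totals only, 1 amylase gene was higher and 2 were lower. GAMYB factors, which activate amylase genes in cereals, had 4 lower of 7 tested in that comparison (57.1%), where 32.5% of all genes were lower. With library totals only, all 7 were lower. Each of the 4 was highest in green fruit 1. FtPinG0000999800.01 had 12.2 CPM there against 0.938 and 0.612 CPM in green fruit 2 and 3, and FtPinG0008108900.01 had 8.66 against 4.61 and 4.52 CPM. The F-box proteins GID2 and SNE, which mark DELLA proteins for destruction in Arabidopsis, had 3 lower of 4 tested at initial maturity against green fruit. The most expressed, a GID2 gene (FtPinG0001040500.01, mean 73.0 FPKM), did not pass (edgeR adjusted p = 0.192). The SNE genes among the 3 (FtPinG0000609700.01 and FtPinG0001807300.01) were weakly expressed, with means of 1.37 and 1.03 FPKM. With library totals only, all 4 were lower. All 6 knotted-1-like genes, homeobox factors of which some repress 20-oxidase genes in other plants, were lower at initial maturity than in green fruit. The most expressed of them, knotted-1-like 3 (FtPinG0004254600.01), had 38.9, 35.9 and 34.3 CPM in green fruit, 54.5, 50.9 and 54.2 CPM at discoloration and 25.2, 10.4 and 24.9 CPM at initial maturity. It fell by 1.40 at initial maturity against discoloration (SE 0.29, adjusted p = 0.0057) and by 0.85 against green fruit (SE 0.28, adjusted p = 0.0258), or by 0.54 without initial maturity 2, with the call lost without green fruit 2 (adjusted p = 0.0514). The tested SPINDLY gene, a glycosyltransferase-like regulator of DELLA proteins, and the tested gene of a gibberellin-modifying cytochrome P450 family passed in opposite directions at initial maturity against discoloration, SPINDLY higher and the P450 lower, and the SPINDLY call was lost with library totals only.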

How the data were processed

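Total RNA of whole seeds was sequenced with a kit that does not mark the strand, per the labels' protocols, in 9 libraries of 3 stages. The authors deposited read counts per gene and FPKM values, per the file headers. Bowtie2 2.0.6 and TopHat2 2.0.12 are named in the submitters' processing notes. Positions are from the authors' deposited gene descriptions; the sources used here name no genome build, annotation release or counting program. The same descriptions hold the Swiss-Prot matches, gene lengths, mean normalized counts per stage (a score set by the authors within each comparison) and the authors' p-values. Other deposited values were genotype calls, used for the 9 libraries alone: each of these tables has a further 9 columns that match no sample here and were not used. No reference sequence was used here.

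The counts of all 9 libraries were fitted in edgeR 4.0.16 (glmQLFit and glmQLFTest, TMM scaling, filterByExpr with a minimum count of 10) in R 4.3.3, with no replicate term. The filter kept 23631 genes and removed 10300. P-values were adjusted by Benjamini and Hochberg's method over every tested gene, with a threshold of 0.05. Each SE is the absolute log2 fold change over the square root of the F statistic. A fold against a stage with no counts is a bound against a floor of 3 counts over the stage. Such intervals and bounds cover counting error only. The script was tested on simulated data. DESeq2 1.42.0, limma 3.58.1 on log2(FPKM + 1) and log2(FPKM + 0.1), other scalings, no filter, a replicate term, fewer libraries and each library left out in turn were alternatives.

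The members, the second pathway list and the marker lists were chosen with earlier results of these data known. The rule for naming took, in each role, the tested member with the highest mean FPKM, the members with the highest and lowest called log2 fold change in each comparison, and every called early synthesis, receptor and DELLA gene, 28 members in all. The other tested members and the ent-kaurene synthase gene were named after their values were seen. The fits without the 3 libraries apart and with close pairs added together were chosen after seeing the data.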

Additional observations from a re-analysis of the deposited data

How the results depend on the processing

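Of 82 called log2 fold changes of single genes given here, 60 kept call and direction without each library in turn, 51 in every alternative but the one that adds close pairs together, and 39 in every alternative. Direction turned in at least 1 alternative for 3 of them, and for 27 of the 53 values that had not passed the test. In 8 of those 30 the turned value passed the test in the other direction. With library totals only, limma on log2(FPKM + 1) and limma on log2(FPKM + 0.1), the values were -0.39, -0.38 and -0.39 for FtPinG0005053900.01 and -0.29, -0.23 and -0.34 for FtPinG0007899800.01, both at initial maturity against green fruit, and -0.12, -0.08 and -0.08 for FtPinG0007990400.01 at discoloration against green fruit. These 3 settings carry no correction for composition. Among values that had not passed, the same 3 settings, in that order, gave the following. In discoloration against green fruit they gave -0.65, -0.63 and -0.64 for FtPinG0000249600.01, -0.97, -0.71 and -0.71 for FtPinG0001264300.01, and -0.44, -0.43 and -0.44 for FtPinG0004254600.01. They also gave -0.35, -0.21 and -0.32 for FtPinG0007899500.01, -0.30, -0.20 and -0.27 for FtPinG0007899800.01, and -0.17, -0.05 and -0.05 for FtPinG0008784600.01. In initial maturity against discoloration they gave -0.33, -0.32 and -0.33 for FtPinG0002734300.01, -0.31, -0.28 and -0.31 for FtPinG0008699300.01, -0.29, -0.31 and -0.32 for FtPinG0008784600.01, and -0.03, -0.03 and -0.04 for FtPinG0009429900.01. In initial maturity against green fruit they gave -1.0, -0.88 and -1.09 for FtPinG0004385200.01, -1.12, -0.99 and -1.12 for FtPinG0004625100.01, and -1.13, -0.64 and -1.08 for FtPinG0007899500.01. For FtPinG0008784600.01 these were -0.46, -0.36 and -0.37, and for FtPinG0009540700.01 -0.43, -0.26 and -0.29. Library totals alone turned FtPinG0009366900.01 to -0.26 at discoloration and -0.18 at initial maturity against green fruit. Limma turned FtPinG0007899800.01 to -0.03 and -0.07 at pseudocounts of 1 and 0.1 at initial maturity against discoloration. Leaving out the 3 libraries apart gave -0.16 for FtPinG0001264300.01, 0.86 for FtPinG0006689400.01, 1.88 for FtPinG0006689500.01 and 0.45 for FtPinG0009397500.01 in discoloration against green fruit. The same gave -0.01 for FtPinG0002734300.01, 0.19 for FtPinG0003061500.01, -0.16 for FtPinG0007899800.01 and -0.07 for FtPinG0008699300.01 in initial maturity against discoloration, and -0.05 for FtPinG0004385200.01 in initial maturity against green fruit. Adding close pairs together gave 0.16 for FtPinG0003934400.01 and 0.04 for FtPinG0007406000.01 in the first comparison, -0.03 for FtPinG0008784600.01 in the second, and 0.00 for FtPinG0002075100.01 and -0.01 for FtPinG0007899500.01 in the third. DESeq2 gave 0.00 for FtPinG0001264300.01 and the replicate block 0.55 for FtPinG0006689500.01, both in discoloration against green fruit. Without each library in turn, ranges that cross 0 in discoloration against green fruit were -0.33 to 0.34 for FtPinG0001264300.01, -0.47 to 0.15 for FtPinG0003934400.01, -1.42 to 3.65 for FtPinG0005929600.01, -0.90 to 0.53 for FtPinG0006689400.01, -0.62 to 1.73 for FtPinG0006689500.01, -0.21 to 0.05 for FtPinG0007406000.01 and -0.48 to 0.42 for FtPinG0009397500.01. In initial maturity against discoloration they were -0.10 to 0.11 for FtPinG0002734300.01, -0.21 to 0.05 for FtPinG0003061500.01, -0.12 to 0.62 for FtPinG0007899800.01, -0.03 to 0.12 for FtPinG0008699300.01 and -0.06 to 0.21 for FtPinG0008784600.01. In initial maturity against green fruit they were -0.60 to 0.08 for FtPinG0002075100.01, -0.20 to 0.63 for FtPinG0004385200.01 and -0.24 to 0.17 for FtPinG0007990400.01. In the following, counts are in the order discoloration against green fruit, initial maturity against discoloration, initial maturity against green fruit. Adding close pairs together left 9, 6 and 25 members called, 2877, 1663 and 9183 of all genes, and 8, 5 and 21 of the second pathway list. Leaving out the 3 libraries apart gave 37 and 31 members, 17730 and 16195 genes and 35 and 29 second-list genes in the first 2 comparisons. In the first, library totals only gave 17967 of the 23631 tested genes, with 7 higher and 20 lower of the 41 tested members. Limma there gave 18801 and 18631 genes at pseudocounts of 1 and 0.1, with 34 second-list genes at 1. Leaving out each library in turn gave 14 to 29, 11 to 22 and 29 to 38 members, 6735 to 12436, 5325 to 12190 and 12438 to 16664 genes, and 15 to 29, 12 to 25 and 27 to 34 second-list genes. The lowest member counts in the first 2 came without discoloration 3, and in the second comparison 5328 genes were called without discoloration 2. The cause was not tested. A replicate block gave 19, 15 and 32 members. Same-numbered libraries correlated with r of -0.14 to 0.13 in their deviations from stage means, and not every library correlated best with its own number, so the numbers were not used as pairs. Genes with 3 or fewer counts in a stage are limited by depth to bounds or wide counting intervals.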

Other observations

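The authors' deposited table gives its own adjusted p-values for the same 3 pairs of stages. Under 0.05 in the authors' deposited table were 19 of 57 members with a value at discoloration against green fruit (11 higher and 8 lower), 18 of 53 at initial maturity against discoloration (9 higher and 9 lower) and 23 of 57 at initial maturity against green fruit (12 higher and 11 lower). The share of all genes under 0.05 there was not counted, so whether members differ from it is not known.

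The deposited genotype calls cover 83860 SNP sites and 23098 InDel sites. Of these, 62 SNP sites lay in 20 members and 5 InDel sites in 2. All 9 libraries were called as the reference at 36 of the SNP sites, and as homozygous for the other allele at 4. At the other 22 SNP sites the libraries did not all have the same call. The neighbouring 20-oxidase genes FtPinG0006689400.01 and FtPinG0006689500.01 held 13 and 11 of the sites called as reference throughout. Of the InDel sites 4 lay in the 3-oxidase gene FtPinG0002514700.01, where every library was called homozygous for the other allele, although no read of that gene was counted at initial maturity.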
